A study of Mus musculus with 12 samples.

Results

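The genes described here are 10 transcription factor genes that cells switch on quickly after a stimulus, many of them through cyclic AMP (cAMP) and calcium: Nr4a1, Nr4a2, Nr4a3, Fos, Fosb, Jun, Junb, Egr1, Crem and Npas4. They were listed by name for their known class, with no cut on measured values but with earlier results of these data known. They are 10 of the 22141 genes with a transcript in the counts table. All 10 passed the filter on low counts and were tested among 15794 genes. Messenger RNA was sequenced in 12 libraries from whole pancreatic islets of male wild-type mice aged 10 to 12 weeks, about 120 islets to a culture; islets hold beta cells beside other endocrine, vascular and immune cells. The 4 groups of 3 libraries were palmitate with C3a, palmitate, vehicle with C3a, and vehicle. Palmitate is a saturated fatty acid often used as a cell stress in culture, and C3a is the peptide cut from complement component C3. Neither the doses nor the length of culture are in the labels, so how long after the stimulus the RNA was taken is not known here. Separate animals or cultures behind the 3 libraries of a group are not stated, and the p-values therefore cover only library-to-library spread, which may be technical.

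Immediate early genes are transcribed without new protein synthesis: a rise in calcium, cAMP or MAP kinase activity activates CREB, serum response factor and their partners, which already sit on these promoters. In beta cells, glucose and incretin hormones raise calcium and cAMP and so drive this class of genes. FOS, FOSB, JUN and JUNB pair up as AP-1, the NR4A proteins are orphan nuclear receptors, EGR1 is a zinc finger factor, NPAS4 is an activity-dependent factor induced by depolarisation, and the short CREM forms called ICER feed back as repressors of cAMP-driven transcription.

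The promoters below are shown because CREB is known to bind the cAMP response element (CRE). They are 4 genes with at least 2 CRE cores and Jun, the gene with none, all of which were higher with palmitate in at least 1 comparison. A promoter window of 300 bases, 250 before to 50 after the RefSeq start (GRCm38.p6), was matched by symbol for 8 of the 10 genes, all except Egr1 and Crem. Capitals mark the CRE core TGACG, or its reverse complement CGTCA where the core lies on the other strand. The windows are chr15:101266596-101266895 (plus strand) for Nr4a1, chr4:48045055-48045354 (plus) for Nr4a3, chr12:85473640-85473939 (plus) for Fos, chr19:4989922-4990221 (minus) for Npas4 and chr4:95052173-95052472 (minus) for Jun, each written 5′ to 3′ along the gene.
Nr4a1: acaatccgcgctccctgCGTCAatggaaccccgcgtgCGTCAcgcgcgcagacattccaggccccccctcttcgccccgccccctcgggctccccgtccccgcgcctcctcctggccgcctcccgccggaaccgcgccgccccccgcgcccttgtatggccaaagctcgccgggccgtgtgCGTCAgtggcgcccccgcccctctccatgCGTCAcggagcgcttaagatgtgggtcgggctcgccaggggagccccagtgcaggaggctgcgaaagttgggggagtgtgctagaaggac
Nr4a3: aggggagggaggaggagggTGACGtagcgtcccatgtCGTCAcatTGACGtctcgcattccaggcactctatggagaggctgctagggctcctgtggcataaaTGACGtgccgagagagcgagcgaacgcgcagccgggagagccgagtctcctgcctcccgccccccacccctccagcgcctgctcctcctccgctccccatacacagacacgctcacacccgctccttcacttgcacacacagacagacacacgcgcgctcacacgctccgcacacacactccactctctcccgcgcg
Fos: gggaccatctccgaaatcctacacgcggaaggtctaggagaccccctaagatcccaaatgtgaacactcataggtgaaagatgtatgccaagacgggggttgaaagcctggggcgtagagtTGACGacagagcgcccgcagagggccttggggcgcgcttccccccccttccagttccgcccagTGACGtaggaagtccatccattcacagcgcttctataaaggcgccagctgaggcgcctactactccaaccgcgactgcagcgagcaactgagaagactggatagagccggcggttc
Npas4: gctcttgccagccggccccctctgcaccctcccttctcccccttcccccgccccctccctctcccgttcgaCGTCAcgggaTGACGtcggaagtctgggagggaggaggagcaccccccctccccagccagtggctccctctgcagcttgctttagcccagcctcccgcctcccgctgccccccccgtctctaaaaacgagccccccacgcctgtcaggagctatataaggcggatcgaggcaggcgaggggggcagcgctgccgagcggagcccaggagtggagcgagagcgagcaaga
Jun: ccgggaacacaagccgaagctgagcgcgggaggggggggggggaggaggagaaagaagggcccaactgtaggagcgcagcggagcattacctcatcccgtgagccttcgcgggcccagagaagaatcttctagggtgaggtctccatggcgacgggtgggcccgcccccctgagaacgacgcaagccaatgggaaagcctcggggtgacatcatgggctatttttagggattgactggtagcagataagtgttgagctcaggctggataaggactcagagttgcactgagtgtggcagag

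The CRE core TGACG was present on either strand in 7 of the 8 windows, all except that of Jun, and in 20.8% of all 32851 promoter windows. At least 2 cores lay in 5 of the 8 windows, against 5.01% of all windows. Nr4a1, Nr4a2 and Nr4a3 held 4 cores each, Fos and Npas4 held 2, and Fosb and Junb held 1. The Fos core nearest the start began 66 bases upstream of it, and the Npas4 cores began 179 and 169 bases upstream on opposite strands. These distances are from the RefSeq start. The only Npas4 transcript counted starts further upstream, at 4990316, so both Npas4 cores lie within its span. The full palindrome TGACGTCA, which contains the core on both strands, was in none of the 8 windows and in 1.79% of all. The AP-1 site TGAGTCA (5.2% of all windows), the NR4A site AAAGGTCA (1.51%), the EGR site GCGTGGGCG (0.612%) and the CArG box (1.63%) were in none of the 8 windows either. A second EGR form, GCGGGGGCG, was in the Fosb and Nr4a1 windows and in 2.91% of all. The TATA box letters TATAAA were in those of Nr4a2, Junb and Fos and in 13.6% of all. They began 33 bases upstream of the RefSeq start in Fos, at that start itself in Junb, and 164 bases upstream on the other strand in Nr4a2. The only Junb transcript counted starts at 84978718, downstream of the RefSeq start, so the letters lie upstream of its start. These matches describe letters in a short window and not binding. Only the stated letters were searched, so close variants of a site, in the Jun window or the others, were not counted.

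The 10 genes spanned a wide range of levels in vehicle islets. On the TPM scale, which divides counts by transcript length and library size, Crem averaged 39.2 ± 8.6 and Junb 37.8 ± 21.1 TPM (SD, n = 3 each), followed by Jun at 22.5 ± 9.9, Egr1 at 13.9 ± 8.8 and Fos at 11.5 ± 9.6 TPM (SD, n = 3 each). Nr4a2 averaged 7.80 ± 2.26 and Nr4a1 6.49 ± 2.17 TPM in vehicle islets (SD, n = 3 each), near the middle of the genes tested, of which 45.3% and 41.7% lay below them. Fosb at 0.361 ± 0.122, Npas4 at 0.178 ± 0.138 and Nr4a3 at 0.157 ± 0.056 TPM (SD, n = 3 each) were among the rarest RNAs tested, with 9.1%, 4.0% and 3.3% of genes below them. The ranges over the 3 vehicle libraries overlapped for neighbours in this order, except for the step between Nr4a1 and Fosb. Within libraries, the higher neighbour was above the lower in all 3 vehicle libraries for Junb over Jun, Jun over Egr1, Egr1 over Fos, Nr4a2 over Nr4a1 and Fosb over Npas4, and not for Crem over Junb, Fos over Nr4a2 or Npas4 over Nr4a3. The 3 rare genes had 4 to 95 counts per library for Npas4, 15 to 75 for Fosb and 9 to 67 for Nr4a3, so their values carry more counting error than the others.

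**Figure D1:**
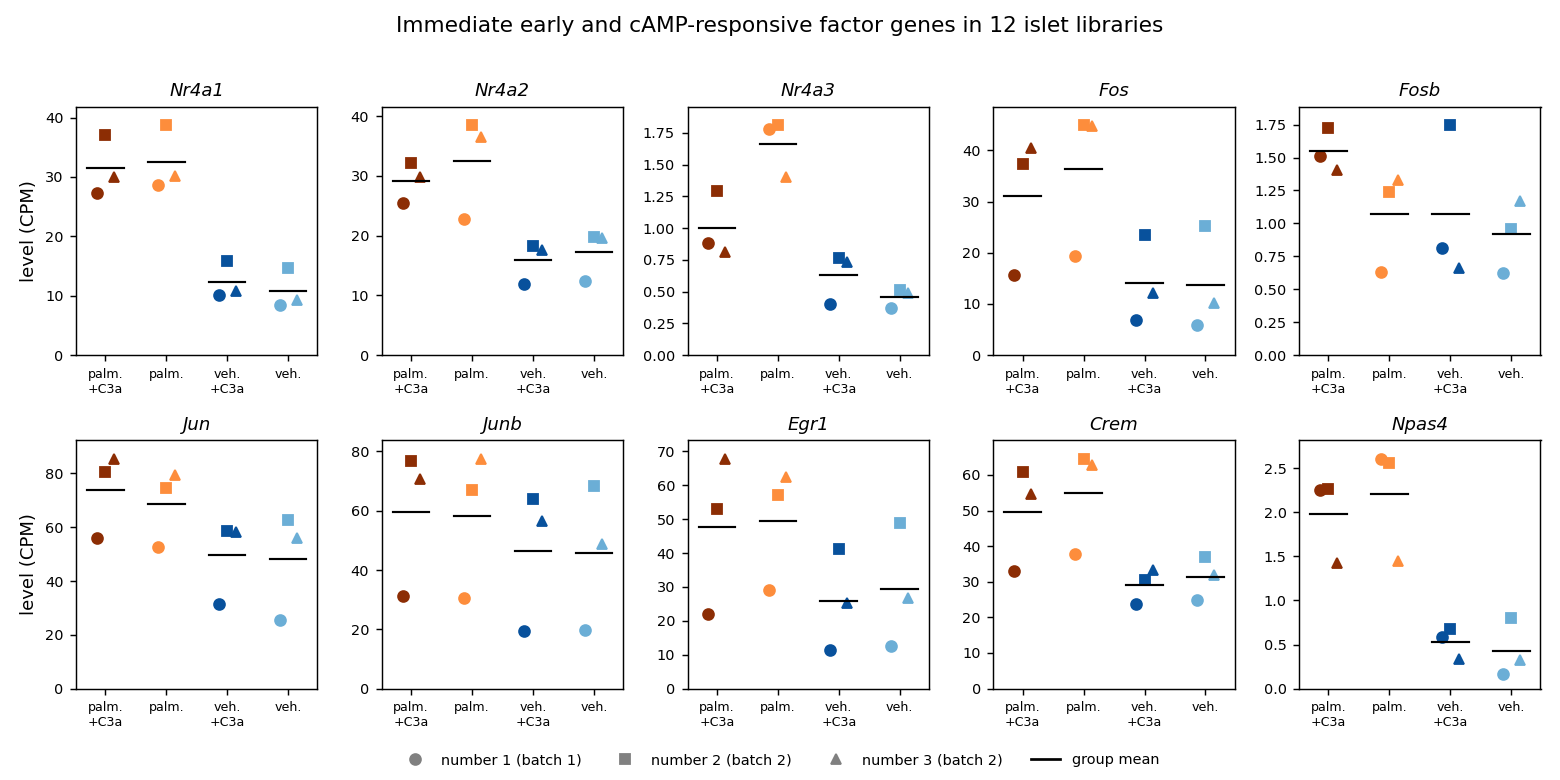
Level of each gene in every library, in CPM (counts scaled to library size, linear axis from 0), for palmitate with C3a, palmitate, vehicle with C3a and vehicle; point shapes give the library number, with number 1 in sequencing batch 1, and bars give the group mean. Nr4a1 lay between 27.3 and 38.7 CPM in the 6 libraries with palmitate and between 8.52 and 15.8 CPM in the 6 without.

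Palmitate islets had more RNA of most of these genes than vehicle islets. A gene was called where the edgeR quasi-likelihood test gave a Benjamini-Hochberg adjusted p under 0.05 over all genes. In palmitate against vehicle, 7 of the 10 genes were called, all higher, where 25.4% of all genes tested were called and 13.4% were higher. In palmitate with C3a against vehicle with C3a, 7 of the 10 were higher, where 26.9% of all genes were called and 13.8% were higher. This comparison shares no library with the one before, but both came from the same fit, with a shared spread and batch term. They are therefore not independent tests. Nr4a1, Nr4a2, Fos, Jun, Crem and Npas4 were called in both comparisons, Nr4a3 in the one without C3a and Egr1 in the one with it. None of the 10 was called lower. The 10 genes were chosen with earlier results of these data known, so their counts beside those of all genes are a description. In bulk islets, fewer cells of a type and less RNA per cell cannot be told apart. Values below are CPM, counts scaled to library size, in the order of library numbers 1, 2 and 3.

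Nr4a1 (Nur77; chromosome 15, 101254269 to 101274795, plus strand, GRCm38) encodes a nuclear receptor that acts without a known hormone ligand. It had 28.7, 38.7 and 30.2 CPM in palmitate libraries, against 8.52, 14.7 and 9.24 CPM in vehicle libraries. With C3a it had 27.3, 37.1 and 30.0 CPM in palmitate libraries, against 10.2, 15.8 and 10.9 CPM in vehicle libraries. Every palmitate library was well above every vehicle library, with or without C3a. The fold change was 3.00 in palmitate against vehicle (log2 fold change 1.59 ± 0.20 SE, edgeR adjusted p = 0.000448) and 2.56 with C3a (log2 1.36 ± 0.20 SE, edgeR adjusted p = 0.000935).

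Its relative Nr4a2 (Nurr1; chromosome 2, 57106830 to 57124003, minus strand) is known for its part in dopamine neurons and is induced by cAMP in many cells. It had 22.8, 38.5 and 36.5 CPM in palmitate libraries, against 12.4, 19.8 and 19.6 CPM in vehicle libraries. In the C3a groups the values were 25.6, 32.2 and 29.9 CPM with palmitate, against 11.9, 18.3 and 17.5 CPM with vehicle. The groups did not overlap in either comparison. Nr4a2 had the smallest adjusted p of the 10 genes in both, at log2 fold changes of 0.91 ± 0.08 SE (edgeR adjusted p = 2.86e-05) and 0.89 ± 0.09 SE with C3a (edgeR adjusted p = 3.09e-05).

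Nr4a3 (Nor1; chromosome 4, 48045153 to 48086447, plus strand), the rarest of the family here, had 1.78, 1.81 and 1.40 CPM in palmitate libraries, against 0.372, 0.510 and 0.491 CPM in vehicle libraries. Its values were 0.886, 1.29 and 0.813 CPM in palmitate with C3a libraries, against 0.406, 0.767 and 0.730 CPM in vehicle with C3a libraries. On the CPM scale palmitate libraries were all above vehicle libraries in both settings, but with C3a the lowest of the upper group and the highest of the lower group nearly met. On the TPM scale the C3a groups overlapped, at 0.276, 0.569 and 0.209 TPM with palmitate, against 0.112, 0.294 and 0.466 TPM with vehicle. The log2 fold change was 1.85 ± 0.29 SE without C3a (edgeR adjusted p = 0.000833) and 0.63 ± 0.29 SE with C3a (edgeR adjusted p = 0.137), which did not pass.

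Npas4 (chromosome 19, 4984355 to 4990316, minus strand), whose protein turns on further genes after calcium entry, had the largest fold change of the 10 genes in both comparisons. It had 2.61, 2.56 and 1.45 CPM in palmitate libraries, against 0.166, 0.796 and 0.328 CPM in vehicle libraries. With C3a it had 2.25, 2.27 and 1.43 CPM in palmitate libraries, against 0.587, 0.674 and 0.332 CPM in vehicle libraries. The groups were apart in both comparisons, and library 3 was the lowest of both groups that received palmitate. The fold change was 4.75 without C3a (log2 2.25 ± 0.48 SE, edgeR adjusted p = 0.00515) and 3.73 with C3a (log2 1.90 ± 0.47 SE, edgeR adjusted p = 0.0116). The call rests on few counts: vehicle library 1 held 4 Npas4 counts, the log2 fold change without C3a ran from 1.84 without vehicle replicate 1 to 3.06 without vehicle replicate 2, and without vehicle with C3a replicate 3 the adjusted p with C3a was 0.0528 by edgeR.

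Fos (chromosome 12, 85473890 to 85477273, plus strand), whose protein needs a JUN partner to bind DNA, had 19.4, 44.9 and 44.8 CPM in palmitate libraries, against 5.96, 25.2 and 10.2 CPM in vehicle libraries. With C3a the values were 15.6, 37.3 and 40.4 CPM for palmitate, against 6.81, 23.5 and 12.1 CPM for vehicle. The groups overlapped, because library 1 was low in all groups and vehicle library 2 was high, while every palmitate library was above the vehicle library of its own number. The log2 fold change was 1.43 ± 0.34 SE (edgeR adjusted p = 0.0170) and 1.15 ± 0.34 SE with C3a (edgeR adjusted p = 0.0403). The call without C3a ended without palmitate replicate 1 (adjusted p = 0.0561 by edgeR) or vehicle replicate 1 (0.0652), and the call with C3a ended in 9 of the 12 fits that left out a single library.

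Jun (chromosome 4, 95049034 to 95052222, minus strand), which can bind DNA as a pair with itself, had 52.6, 74.6 and 79.3 CPM in palmitate libraries, against 25.6, 62.8 and 55.9 CPM in vehicle libraries. In the C3a groups Jun had 55.9, 80.7 and 85.4 CPM for palmitate, against 31.6, 58.6 and 58.4 CPM for vehicle. The groups overlapped through library 1, and each palmitate library was above the vehicle library of its number. The increase was smaller than for Fos but tighter, at 0.57 ± 0.12 SE on the log2 scale (edgeR adjusted p = 0.00717) and 0.61 ± 0.12 SE with C3a (edgeR adjusted p = 0.00481).

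Junb (chromosome 8, 84974484 to 84978718, minus strand), an AP-1 subunit that often opposes JUN, had 30.4, 66.9 and 77.5 CPM in palmitate libraries, against 19.7, 68.5 and 48.8 CPM in vehicle libraries. With C3a it had 31.1, 76.7 and 70.6 CPM for palmitate, against 19.3, 63.8 and 56.5 CPM for vehicle. The groups overlapped widely in both comparisons. The log2 fold changes of 0.40 ± 0.14 SE (edgeR adjusted p = 0.0614) and 0.41 ± 0.14 SE with C3a (edgeR adjusted p = 0.0538) did not pass, and both passed with DESeq2 (adjusted p = 0.00897 and 0.0101). By the spans of whole genes, Jun overlaps Junos and Junb overlaps Prdx2 on the other strand. Overlap with the exons of the counted transcripts was not checked, and the only Junb transcript counted spans 84976910 to 84978718. The sources used here do not give the strand setting of the authors' counting, so whether either level is affected is not known.

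Fosb (chromosome 7, 19302696 to 19310051, minus strand), known for slow build-up under repeated stimulation, had 0.632, 1.24 and 1.33 CPM in palmitate libraries, against 0.621, 0.959 and 1.17 CPM in vehicle libraries. In the C3a groups Fosb had 1.51, 1.72 and 1.41 CPM for palmitate, against 0.812, 1.74 and 0.663 CPM for vehicle. The groups overlapped in both comparisons. Fosb, like Junb, was called in neither comparison, with log2 fold changes of 0.21 (95% interval −0.55 to 0.97, edgeR adjusted p = 0.713) and 0.55 with C3a (−0.19 to 1.30, edgeR adjusted p = 0.271), intervals that include both 0 and the values of Jun.

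Egr1 (chromosome 18, 34859823 to 34864984, plus strand), a target of MAP kinase and serum response factor, had 29.1, 57.0 and 62.3 CPM in palmitate libraries, against 12.6, 48.9 and 26.8 CPM in vehicle libraries. Among C3a libraries the values were 22.04, 53.1 and 67.8 CPM for palmitate, against 11.3, 41.1 and 25.3 CPM for vehicle. As for Fos, library 1 was low throughout and vehicle library 2 was high, so that the groups overlapped. The log2 fold change of 0.82 ± 0.26 SE missed the threshold (edgeR adjusted p = 0.0544; DESeq2 adjusted p = 0.00982), and that of 0.89 ± 0.27 SE with C3a passed it (edgeR adjusted p = 0.0396). The difference between these values was not called (interaction log2 0.07 ± 0.37 SE, edgeR adjusted p = 1.000), and the call with C3a ended in 8 of the 12 fits that left out a single library.

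**Figure D2:**
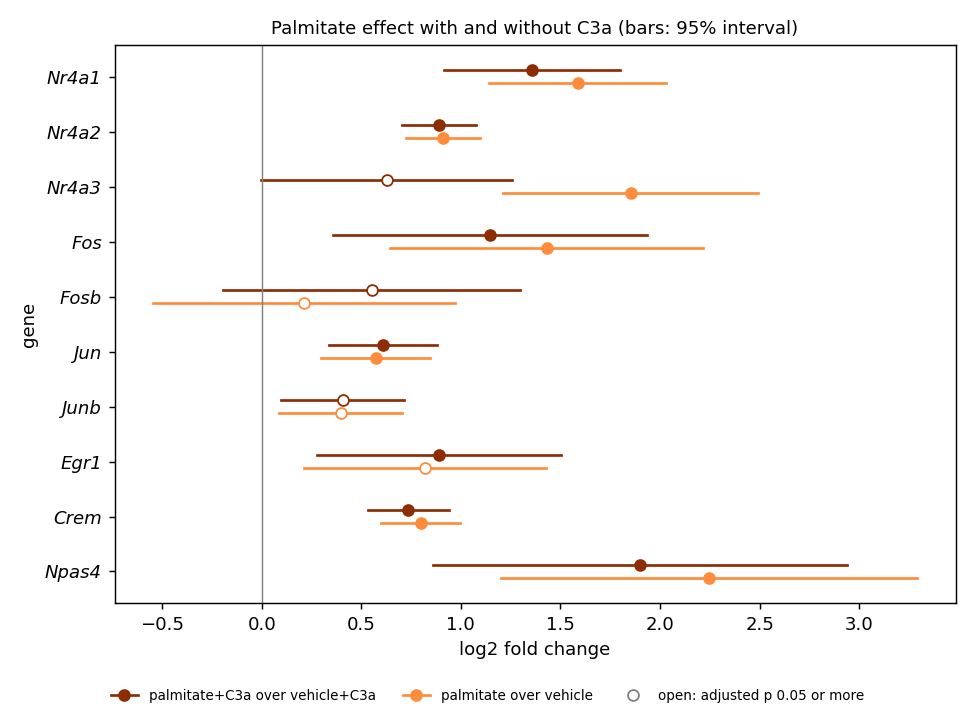
Log2 fold change of each gene for palmitate with C3a over vehicle with C3a and for palmitate over vehicle, with 95% intervals from the edgeR fit; filled points have an adjusted p under 0.05. All 20 estimates are above 0, from 0.21 for Fosb to 2.25 for Npas4.

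Crem (chromosome 18, 3266048 to 3337748, minus strand) encodes both activators and repressors of cAMP-driven genes. It had 37.8, 64.5 and 62.8 CPM in palmitate libraries, against 25.0, 36.8 and 32.0 CPM in vehicle libraries. With C3a it had 32.9, 60.8 and 54.7 CPM for palmitate, against 23.9, 30.5 and 33.3 CPM for vehicle. Without C3a the groups did not overlap, by a narrow margin at library 1, and with C3a palmitate library 1 fell just under vehicle library 3. The log2 fold change was 0.80 ± 0.09 SE (edgeR adjusted p = 0.000118) and 0.74 ± 0.09 SE with C3a (edgeR adjusted p = 0.000168). By gene span, Crem overlaps the predicted gene Gm6225 on the other strand. As for Jun and Junb, whether its level is affected is not known.

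The table lists 32 Crem transcripts, of which 7 start at an internal cluster between positions 3281078 and 3281769 and code for 285 to 375 bases, the short ICER type. The other 25 start upstream. The internal cluster pools starts at 3281078 to 3281132 with starts at 3281738 to 3281769, which were not summed apart. In palmitate against vehicle, single transcripts had log2 fold changes of 0.10 to 1.03 from the former starts and 0.95 to 1.57 from the latter. None of these single transcripts was called. Transcripts of the internal cluster summed to 20.99, 38.03 and 39.65 CPM in palmitate libraries, against 14.7, 20.7 and 16.3 CPM in vehicle libraries. With C3a they summed to 17.5, 37.9 and 34.4 CPM for palmitate, against 13.7, 15.5 and 17.3 CPM for vehicle. These short forms were higher with palmitate in every same-numbered pair, by log2 0.90 ± 0.17 SE (edgeR adjusted p = 0.00332) and by 0.91 ± 0.17 SE with C3a (edgeR adjusted p = 0.00312). Transcripts from the upstream starts summed to 16.8, 26.5 and 23.1 CPM in palmitate libraries, against 10.3, 16.2 and 15.7 CPM in vehicle libraries. Their log2 fold change was 0.66 ± 0.07 SE (edgeR adjusted p = 8.13e-05), and 0.52 ± 0.07 SE with C3a (edgeR adjusted p = 0.000345), so both kinds of transcript were higher. In sequencing batch 2 the internal cluster took 58.9% to 63.1% of Crem counts in the 4 palmitate libraries, against 50.6% to 56.1% in the 4 vehicle libraries. In batch 1 the order was the other way, at 53.1% and 55.5% with palmitate, against 57.5% and 58.8% with vehicle, and the difference between the forms was not tested. Counts of near-identical transcripts are estimates, and the split by start site was chosen after seeing the data.

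**Figure D3:**
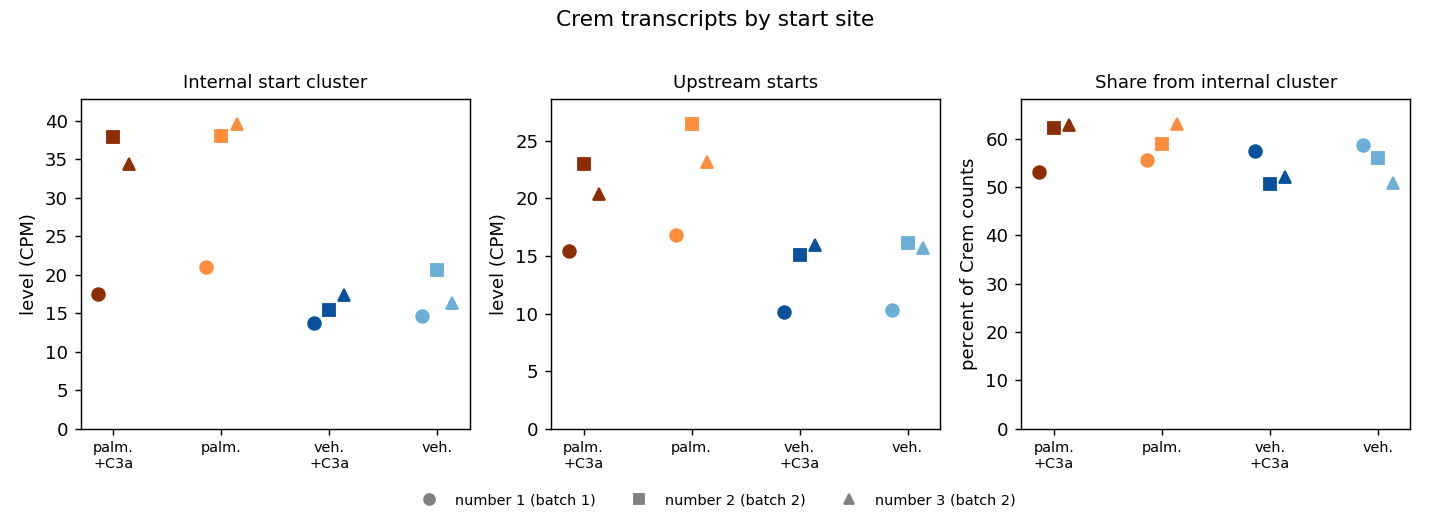
Summed level in CPM of Crem transcripts from the internal start cluster and from upstream starts, and the percent of Crem counts from the internal cluster, per library and group (linear axes from 0). The share is above 58% in the 4 palmitate libraries of batch 2 and below 58% in the other libraries except vehicle library 1.

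At the level of single transcripts, 4 of the transcripts of these genes were called higher in palmitate against vehicle, where 3.99% of 41537 transcripts tested were called, 2.37% higher and 1.62% lower. They were Nr4a1-201 (log2 1.60 ± 0.19 SE, edgeR adjusted p = 0.00261), Fos-201 (1.49 ± 0.31 SE, 0.0314), Nr4a2-203 (0.74 ± 0.16 SE, 0.0321) and Jun-201 (0.59 ± 0.13 SE, 0.0338). Each is a main protein-coding form. Nr4a1-201 and Jun-201 are the only transcript of their gene in the counts table, so their calls repeat the gene result. None of the Crem transcripts tested was called in either comparison. The 4 calls are a count and not a share of the transcripts tested for these genes. With C3a, Nr4a1-201, Nr4a2-203 and Jun-201 were called higher, where 4.76% of transcripts were called, 2.16% higher and 2.6% lower.

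C3a changed none of the 10 genes past the threshold. By edgeR, 0 of 15794 genes (0.0%) were called in palmitate with C3a against palmitate, 0 (0.0%) in vehicle with C3a against vehicle and 0 (0.0%) in the interaction, while 430, 347 and 251 genes had an unadjusted p under 0.05. DESeq2 called 1, 2 and 0 genes, none of them among these 10. The edgeR intervals limit what C3a could have done: for Nr4a2 the 95% interval of the log2 fold change was −0.32 to 0.05 in palmitate and −0.31 to 0.07 in vehicle, and for Crem −0.35 to 0.04 and −0.30 to 0.11. For Npas4, Fos and Fosb the intervals were wide, for example −1.09 to 0.78 for Npas4 in palmitate. These comparisons share the palmitate libraries or the vehicle libraries with those above.

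Nr4a3 had the smallest unadjusted p of the 10 genes for C3a in palmitate. Its values of 0.886, 1.29 and 0.813 CPM in palmitate with C3a libraries were all below the 1.78, 1.81 and 1.40 CPM in palmitate libraries. On the TPM scale these groups overlapped, at 0.276, 0.569 and 0.209 TPM with C3a, against 0.490, 0.707 and 0.347 TPM without it. In vehicle the C3a libraries were the higher of each number, at 0.406, 0.767 and 0.730 CPM with C3a, against 0.372, 0.510 and 0.491 CPM without it. The log2 fold change of C3a was −0.75 (95% interval −1.35 to −0.15, unadjusted p = 0.0188 by edgeR) in palmitate and 0.48 (−0.19 to 1.14, unadjusted p = 0.144 by edgeR) in vehicle. The interaction was −1.23 ± 0.41 SE (unadjusted p = 0.0116, adjusted p = 1.000 by edgeR), so it did not hold after adjustment over all genes. Groups of CPM values did not overlap for Nr4a3 and Fosb in palmitate with C3a against palmitate, where 3.88% of all genes did not overlap, and for none of the 10 in vehicle with C3a against vehicle, where 5.41% did not. Fosb was the higher with C3a, at 1.51, 1.72 and 1.41 CPM, against 0.632, 1.24 and 1.33 CPM in palmitate libraries (log2 0.57 ± 0.34 SE, unadjusted p = 0.121 by edgeR).

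**Figure D4:**
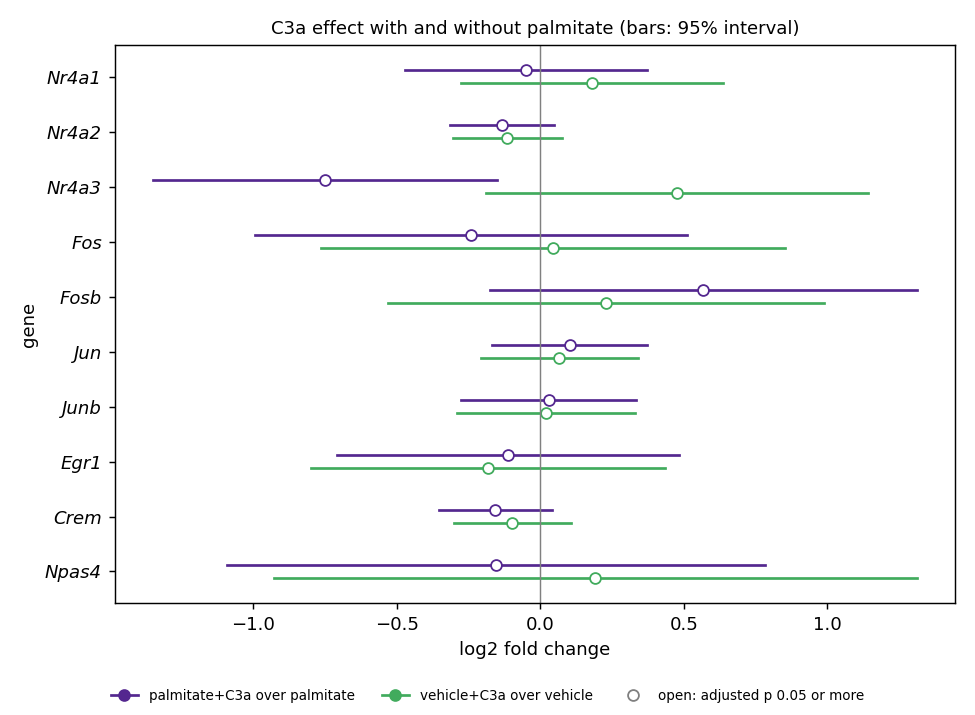
Log2 fold change of each gene for palmitate with C3a over palmitate and for vehicle with C3a over vehicle, with 95% intervals from the edgeR fit; open points have an adjusted p of 0.05 or more. Every interval except that of Nr4a3 in palmitate (−1.35 to −0.15) includes 0.

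Several of these genes differed between sequencing batches by as much as with palmitate. In batch 2 (libraries 2 and 3) against batch 1 (library 1), a comparison chosen after seeing the data, 6 of the 10 genes were higher, where 35.7% of all genes were called and 19.5% were higher. Junb was higher in batch 2 by log2 1.42 ± 0.11 SE, Egr1 by 1.39 ± 0.22 and Fos by 1.35 ± 0.28 (edgeR adjusted p = 8.73e-06, 0.00132 and 0.00608). Jun, Crem and Nr4a2 were higher by log2 0.79, 0.62 and 0.56. Npas4 at −0.02 ± 0.37 SE (edgeR adjusted p = 0.971), Nr4a1 at 0.35 ± 0.15 SE (0.103), Nr4a3 at 0.28 ± 0.23 SE (0.517) and Fosb at 0.56 ± 0.27 SE (0.134) were not called. Depth moved with the batch: totals were at least 35876350 counts in batch 2 and at most 26110989 in batch 1. Its part in the batch difference was not tested. Batch 1 is library number 1 of every group, so sequencing batch cannot be told apart from anything else that set number 1 apart.

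Because batch 1 holds 1 library of each group, the effect within it is a single difference per gene, which in palmitate minus vehicle ran from 0.03 for Fosb (log2) to 1.75 for Nr4a1, 2.10 for Nr4a3 and 3.60 for Npas4. Within batch 2 alone the log2 fold change of palmitate against vehicle was 1.52 for Nr4a1, 0.93 for Nr4a2, 1.68 for Nr4a3, 0.38 for Jun and 0.89 for Crem, and these 5 were called (edgeR). Fos at 1.34 (edgeR adjusted p = 0.166) and Npas4 at 1.82 (0.0573) were not called. With C3a, Nr4a1 at 1.33, Nr4a2 at 0.79, Jun at 0.50 and Crem at 0.85 were called within batch 2, while Fos at 1.13, Egr1 at 0.87 and Npas4 at 1.87 were not. Over all 3 numbers, palmitate was above vehicle in every same-numbered pair for 9 of the 10 genes in each comparison, where this held for 27.2% of all genes without C3a and 28.4% with it. The exceptions were Junb without C3a, where pair 2 differed by −0.03 on the log2 scale, and Fosb with C3a, where pair 2 differed by −0.02. Groups of CPM values did not overlap for 5 genes without C3a (Nr4a1, Nr4a2, Nr4a3, Crem and Npas4), where 29.8% of all genes did not, and for 4 with C3a (the same without Crem), where 30.0% did not.

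Libraries of the same group and batch also differed from each other, and they did so for several of these genes at once. After group and batch means were removed, Fos was 0.69 above the mean in vehicle library 2 and 0.61 below it in vehicle library 3 on the log2 scale. The same pair read 0.48 and −0.38 for Egr1, 0.37 and −0.30 for Nr4a1, 0.29 and −0.20 for Junb. Vehicle with C3a libraries 2 and 3 repeated the pattern, at 0.47 and −0.48 for Fos and 0.39 and −0.30 for Egr1. Libraries 2 and 3 carry different date-like tags in their labels, each shared by the 4 groups. Library number was not removed, so any difference between these numbers stays in the residuals, and its part was not tested. In the palmitate groups, Fos stayed within 0.07 of its mean in all 6 libraries. Across the 12 libraries the residuals of Fos and Egr1 correlated at r = 0.93, those of Nr4a1 and Fos at 0.85 and those of Nr4a1 and Npas4 at 0.81, as a description over points that share the fitted group and batch means. Of 45 pairs of genes, the median r was 0.3, 13 pairs were over 0.5 and 9 below 0, and the lowest was Jun with Crem at −0.61. Crem and Nr4a2 differed little between vehicle libraries 2 and 3, at 0.05 and −0.15 for Crem and 0.04 and 0.03 for Nr4a2.

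Among the other genes of these pathways, the lists named below were chosen with earlier results of these data known, and counts are edgeR calls. Of all genes tested, 13.4% were called higher and 12.0% lower in palmitate against vehicle, and 13.8% and 13.1% with C3a, and each list's count stands against these shares. Of 11 further AP-1 genes tested, 6 were higher and 0 lower in palmitate against vehicle (median log2 fold change 0.24, against −0.02 for all genes), and 6 and 0 with C3a. Maff, a small MAF protein, was higher by log2 1.39 ± 0.13 SE, with 31.6, 50.3 and 41.4 CPM in palmitate libraries, against 12.2, 19.4 and 15.2 CPM in vehicle libraries. The FOS relatives Fosl1 (1.07 ± 0.23 SE) and Fosl2 (0.90 ± 0.14 SE) and the stress factor Atf3 (0.69 ± 0.14 SE) were higher too.

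Of 29 other immediate early genes tested, 9 were higher and 1 lower in palmitate against vehicle (13.4% and 12.0% of all genes), and 11 and 2 with C3a (13.8% and 13.1%). Myc, the growth regulator, was higher by log2 0.97 ± 0.13 SE. Klf10, a TGF-beta-induced zinc finger factor, had 30.2, 32.8 and 31.3 CPM in palmitate libraries, against 13.6, 17.7 and 18.0 CPM in vehicle libraries, and was higher by 0.94 ± 0.08 SE. The small GTPase gene Gem was higher by 0.93 ± 0.20 SE and the matricellular gene Ccn1 by 0.92 ± 0.26 SE, while 19 of the 29 were not called.

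Of 18 cAMP-induced targets and feedback genes tested, a list that holds 2 of the 10 genes, 10 were higher and 2 lower in each palmitate comparison (median log2 fold change 0.63 without C3a and 0.59 with it). Vgf, which encodes a secreted neuroendocrine peptide precursor, had 278, 387 and 344 CPM in palmitate libraries, against 53.6, 90.0 and 74.8 CPM in vehicle libraries, a log2 fold change of 2.21 ± 0.15 SE (edgeR adjusted p = 1.95e-05). The metabolic coactivator gene Ppargc1a was higher by 1.43 ± 0.16 SE and the CREB-feedback kinase gene Sik1 by 0.91 ± 0.13 SE. Of 25 genes of the machinery that carries the cAMP signal to CREB, 3 were higher and 7 lower in palmitate against vehicle (13.4% and 12.0% of all genes), and 4 and 9 with C3a (13.8% and 13.1%). The regulatory subunit Prkar1a was higher by 0.51 ± 0.08 SE, while the regulatory subunit Prkar2b (−0.38 ± 0.06 SE), the catalytic subunit Prkacb (−0.34 ± 0.05 SE) and the cAMP-activated exchange factor Rapgef4 (−0.34 ± 0.05 SE) were lower.

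Of 22 serum response and MAP kinase regulators, 6 were higher and 2 lower in palmitate against vehicle (13.4% and 12.0% of all genes), and 7 and 2 with C3a (13.8% and 13.1%). Those with the largest change were feedback inhibitors of ERK signalling: the phosphatase gene Dusp4 was higher by log2 1.41 ± 0.16 SE, with 64.3, 91.6 and 70.7 CPM in palmitate libraries, against 21.6, 36.1 and 27.4 CPM in vehicle libraries. Spry2 was higher by 0.82 ± 0.10 SE, Dusp5 by 0.62 ± 0.06 SE and Dusp6 by 0.55 ± 0.08 SE. No gene of these lists was called in a C3a comparison.

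Islet cell markers were measured beside these genes, and their counts are for palmitate against vehicle, where 13.4% of all genes were called higher and 12.0% lower. Beta cell markers, which include the insulin genes, dominated the islet RNA, with a summed level of 374000 to 400000 TPM in palmitate libraries, against 397000 to 441000 TPM in vehicle libraries, and 359000 to 394000 TPM in palmitate with C3a libraries, against 412000 to 457000 TPM in vehicle with C3a libraries. Of the 10 beta cell markers 0 were higher and 5 lower in palmitate against vehicle, among them the glucose transporter Slc2a2 by −0.87 ± 0.12 SE and the zinc transporter Slc30a8 by −0.76 ± 0.07 SE. All 9 endothelial markers were tested, and 6 were lower and 0 higher. Their summed level was 73.5 to 109 TPM in palmitate libraries, against 116 to 159 TPM in vehicle libraries, and 76.1 to 110 TPM in palmitate with C3a libraries, against 108 to 143 TPM in vehicle with C3a libraries. Fibroblast and pericyte markers had 0 higher and 2 lower of 9, at 63.3 to 257 TPM in palmitate libraries, against 114 to 218 TPM in vehicle libraries. Their sums were 67.9 to 519 TPM (median 70.7) in palmitate with C3a libraries, against 132 to 149 TPM (median 142) in vehicle with C3a libraries. The median log2 fold change of these 9 markers was −0.47 without C3a and 0.44 with it. Macrophage markers had 1 higher and 1 lower of 10, alpha cell markers 1 and 2 of 7, delta cell markers 0 and 0 of 4, acinar markers 0 and 0 of 8, and duct markers 1 and 0 of 5. Heat shock genes, which respond to misfolded protein, had 4 higher and 0 lower of 10, with summed levels of 2110 to 2430 TPM in palmitate libraries, against 1550 to 1950 TPM in vehicle libraries. All of these markers passed the low count filter, and the part of cell make-up and of heat shock in the results was not tested.

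Genes whose pattern over the 12 libraries was most like 3 of the members were named by Pearson r of batch-centred log2 CPM, with the 4 groups included, as a description. For Nr4a1 they were Tkt (r = 0.986), Ubald1, Fam129a and Sept11, and 16.44% of the genes with at least 5 CPM had an r of 0.8 or more. For Fos they were Calr (r = 0.976), H13, Hspa5 (r = 0.970), Rpn1 and Ddost, with 11.62% of genes at 0.8 or more. For Crem they were Rap1b (r = 0.991), Dner, Ctnnal1, Fut1 and Plat, with 16.87% of genes at 0.8 or more. The palmitate difference is part of each pattern. Calr and Hspa5 were higher by only 0.21 and 0.24 on the log2 scale in palmitate against vehicle, while Plat was higher by 1.68.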

How the data were processed

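The authors deposited a table of estimated counts by transcript, unnormalized, for 12 libraries in 4 groups of 3, with groups named by the labels. The submitters' processing notes name kallisto, DESeq2 and GRCm38 with no role or version, and per the labels' protocols the library kit kept strand; the strand setting used in counting is not stated. Of 71524 transcripts, 69942 were matched by identifier to GENCODE M21, summed to 22141 genes and rounded to whole numbers. The 1582 unmatched transcripts held 0.581% to 0.677% of a library's counts. Totals ran from 22216420 to 50264695 counts. Between any pair of libraries, chi-squared per degree of freedom was at least 7.72, so no library was counted as a repeat of another.

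After filterByExpr, which left 15794 genes, and TMM scaling (0.967 to 1.045), a robust quasi-likelihood model was fitted to the 12 libraries together (edgeR 4.0.16, R 4.3.3). Its terms were group and sequencing batch, which left 7 residual degrees of freedom, and the common biological coefficient of variation was 11.2%. Tests were two-sided, and p-values were adjusted over all genes. Standard errors are the log2 fold change over the square root of F. CPM are counts over effective library size, TPM used GENCODE transcript lengths, and log2 CPM for the likeness and residuals used a prior count of 2. The script was tested on simulated data. Library numbers were taken to pair the libraries, since the labels give numbers 2 and 3 a date-like tag shared by the 4 groups and number 1 a sequencing batch. Deviations of same-numbered libraries from their group means correlated at 0.395 to 0.762 over 18 pairs, and those of other pairs at −0.645 to 0.487. Batch was not removed from these deviations, and all negative values were between a batch 1 and a batch 2 library. Within batch 2, same-numbered pairs ran from 0.395 to 0.537 and other pairs from 0.236 to 0.487. These ranges overlap, so the correlations do not settle the pairing by number.

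All 10 members are named in every comparison. Up to 4 genes per pathway list are named, those called in palmitate against vehicle with the largest change and, in the higher group, a mean of 1 CPM or more; up to 2 per marker list; and the 5 most alike genes for Nr4a1, Fos and Crem; a gene that the rule selects is not reported here. The members and lists were chosen with earlier results of these data known. Sequences are from RefSeq (GRCm38.p6). Alternatives were other size factors, DESeq2 1.42.0, no filter, a replicate block, no batch term, batch 2 alone, and leaving out each library.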

Additional observations from a re-analysis of the deposited data

How the results depend on the processing

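The 14 member calls kept their direction in all 252 alternative values, and 34 of those values were not past the threshold. With the replicate block, which uses the pairing of the libraries, 7 members were called in each palmitate comparison, and no member call changed. With no filter on low counts, Fos and Egr1 lost their calls with C3a (edgeR adjusted p = 0.0739 and 0.0747). Without the batch term, 4 members (palmitate against vehicle) and 3 (with C3a) were called, of 1841 and 2074 genes, and 1 member transcript in each; Fos, Jun and Crem lost their calls in both, and Egr1 with C3a. In batch 2 alone 2058 and 2331 genes were called, 4 members with C3a and 0 member transcripts in either comparison. Leaving out a library gave 6 to 9 members without C3a and 4 to 8 with it, 4 of them without vehicle with C3a replicate 3, and 1 to 4 member transcripts in each. Among the alternatives run for the Crem forms, which did not include the DESeq2 test or the fit with no filter, both lost their calls without the batch term (edgeR adjusted p = 0.0746 and 0.111 for the internal and upstream forms, 0.0670 and 0.210 with C3a). The cause of these changes was not tested. For C3a in palmitate 1 gene was called with DESeq2, 1 in batch 2 alone and 0 to 1 with a library left out; in vehicle 2 with DESeq2, 3 with no filter and 0 to 1 with a library left out.

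Values that changed sign were all of uncalled differences. In batch 2 alone these were 0.017 for Egr1 (C3a in palmitate), −0.017 for Jun and −0.17 for Npas4 (C3a in vehicle), and −0.016 for Junb and 0.050 for Npas4 (interaction). The Junb interaction was also −0.0079 with DESeq2 size factors, −0.0061 with DESeq2, −0.0011 with no filter and −0.0023 with the replicate block. The Npas4 batch difference was 0.0095 with DESeq2. With a library left out, C3a in palmitate ranged from −0.16 to 0.040 for Nr4a1, −0.0031 to 0.21 for Jun, −0.057 to 0.099 for Junb, −0.23 to 0.039 for Egr1 and −0.41 to 0.052 for Npas4. C3a in vehicle ranged from −0.30 to 0.58 for Fos, −0.25 to 0.57 for Fosb, −0.086 to 0.19 for Jun, −0.086 to 0.21 for Junb, −0.45 to 0.16 for Egr1 and −0.20 to 1.02 for Npas4. The interaction ranged from −0.15 to 0.054 for Nr4a2, −0.82 to 0.063 for Fos, −0.086 to 0.19 for Jun, −0.18 to 0.11 for Junb, −0.26 to 0.34 for Egr1, −0.14 to 0.020 for Crem and −1.17 to 0.049 for Npas4. The Npas4 batch difference ranged from −0.31 to 0.15. Npas4, Fosb and Nr4a3 had at most 95 counts per library.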
